A study of Homo sapiens with 4 samples.

Results

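The lysosome is the acidic compartment in which cells break down protein, glycans and lipids. Its lumen holds hydrolases, its membrane carries heavily glycosylated proteins, transporters and channels, and a proton pump, the vacuolar ATPase (V-ATPase), keeps it acidic. TFEB and TFE3 are related transcription factors known to switch on many of these genes together. RAB38 is a small GTPase that directs vesicles to lysosome-related organelles. The messenger RNAs of 43 genes of the lysosome were compared between cells with and without RAB38 silencing. The genes were picked by symbol and comprise 7 membrane proteins, 9 proteases, 7 glycosidases and sulfatases, 7 lipid-handling proteins, 2 transcription factors and 11 subunits or accessory proteins of the V-ATPase. All 43 were found among the 22458 rows of the array table that carry exactly 1 gene symbol.

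LN229 cells, an established human glioblastoma line, were transfected with a pool of siRNAs against RAB38 (siRAB38, n = 2 arrays) or with a nontargeting pool (NT, n = 2 arrays). Both groups were transfected without serum or antibiotics, received serum to 1.5% afterwards and were harvested at 48 h, and total RNA was hybridized to Affymetrix arrays. The values are log2 levels after robust multi-array averaging (RMA), and a difference of 1 is a doubling. The methods use n for independent experiments in other assays, but the labels do not say whether both arrays of a group stem from independent cultures, and the p-values therefore cover array-to-array spread alone, possibly of technical origin. In bulk RNA of 1 cell line, fewer cells that express a gene and less RNA of it per cell cannot be told apart.

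Levels of the silenced gene fitted the labels. RAB38 had log2 levels of 2.52 and 3.43 in the siRAB38 arrays, against 4.69 and 4.78 in the NT arrays, a log2 fold change of -1.76 ± 0.30 (SE, limma adjusted p = 0.72). RAB32, its closest relative, had 3.28 and 3.49 in siRAB38, against 3.55 and 3.43 in NT, with overlapping groups. Array medians lay between 3.47 and 3.51. The 10 markers of a glial or neural lineage ranged from 2.81 to 11.4 over the 4 arrays. GFAP, the classical astrocyte filament, had 3.35 and 2.81 in siRAB38 and 3.11 and 3.08 in NT, and the astrocyte factor SOX9 had 3.91 and 3.72 in siRAB38 and 3.72 and 3.56 in NT. GFAP and SOX9 had the lowest mean levels of the 10. S100B, VIM, CD44, NES, SOX2, EGFR, OLIG2 and PDGFRA had mean levels of 9.72, 11.3, 9.62, 8.35, 7.46, 6.87, 5.11 and 4.10 in siRAB38. In NT these were 9.45, 11.4, 9.54, 8.33, 7.57, 6.93, 4.94 and 4.21. The 8 macrophage or microglia markers ranged from 1.23 to 2.71 and the 5 endothelial markers from 1.64 to 2.37 over the 4 arrays.

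Lysosomal mRNAs differed little between siRAB38 and NT cells, and most of the small differences lay above 0. Of the 43 genes, 34 had a log2 fold change above 0 and 9 below, against 51.5% above 0 over all 22458 genes. Their median was 0.10, with quartiles of 0.02 and 0.14 and a range of -0.46 to 0.26, while the median over all genes was 0.01. In 16 of the 43 genes (37.2%) both siRAB38 arrays exceeded both NT arrays, here called standing apart upward, where this held for 18.8% of all genes. The reverse, standing apart downward, held for 5 genes (11.6%), against 17.2% of all genes. Among the 15720 genes outside the dimmest 30% of the table, which take in all of the 43 but CTSZ, 50.6% had a log2 fold change above 0, both siRAB38 arrays lay above NT in 19.5% and below in 18.6%, and 3.99% (higher) and 3.41% (lower) had an unadjusted p under 0.05.

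After adjustment over the table, limma called 0 of the 43 lysosomal genes at a threshold of 0.05 and 0% of all 22458 genes. Without adjustment, 0 of the 43 had a p under 0.05, against 6.85% of all genes. The methods' t-test called 0 after adjustment and 2 without it, LAMP1 and PPT1, both above 0, against 3.46% of all genes in that direction. With a variance prior that follows the level, limma called 3 at an unadjusted p under 0.05, NPC2, LAMP1 and ATP6V1G1, all with log2 fold changes above 0, against 3.76% of all genes in that direction. The standard errors of the 43 differences ran from 0.10 to 0.19. The 95% confidence interval lay within a 1.5-fold change either way in 41 of the 43 genes, the exceptions being CTSS and TPP1, against 73.5% of all genes. The median of 0.10 ran from 0.052 to 0.097 when single arrays were left out, the lowest being without siRAB38 array 1, where 30 genes lay above 0. Averaged over the 43 genes, the deviation from each gene's mean over the 4 arrays was 0.0525 and 0.0114 in the siRAB38 arrays and -0.0255 and -0.0383 in the NT arrays. The groups thus did not overlap in this average, but siRAB38 array 2 lay close to NT.

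**Figure D1:**
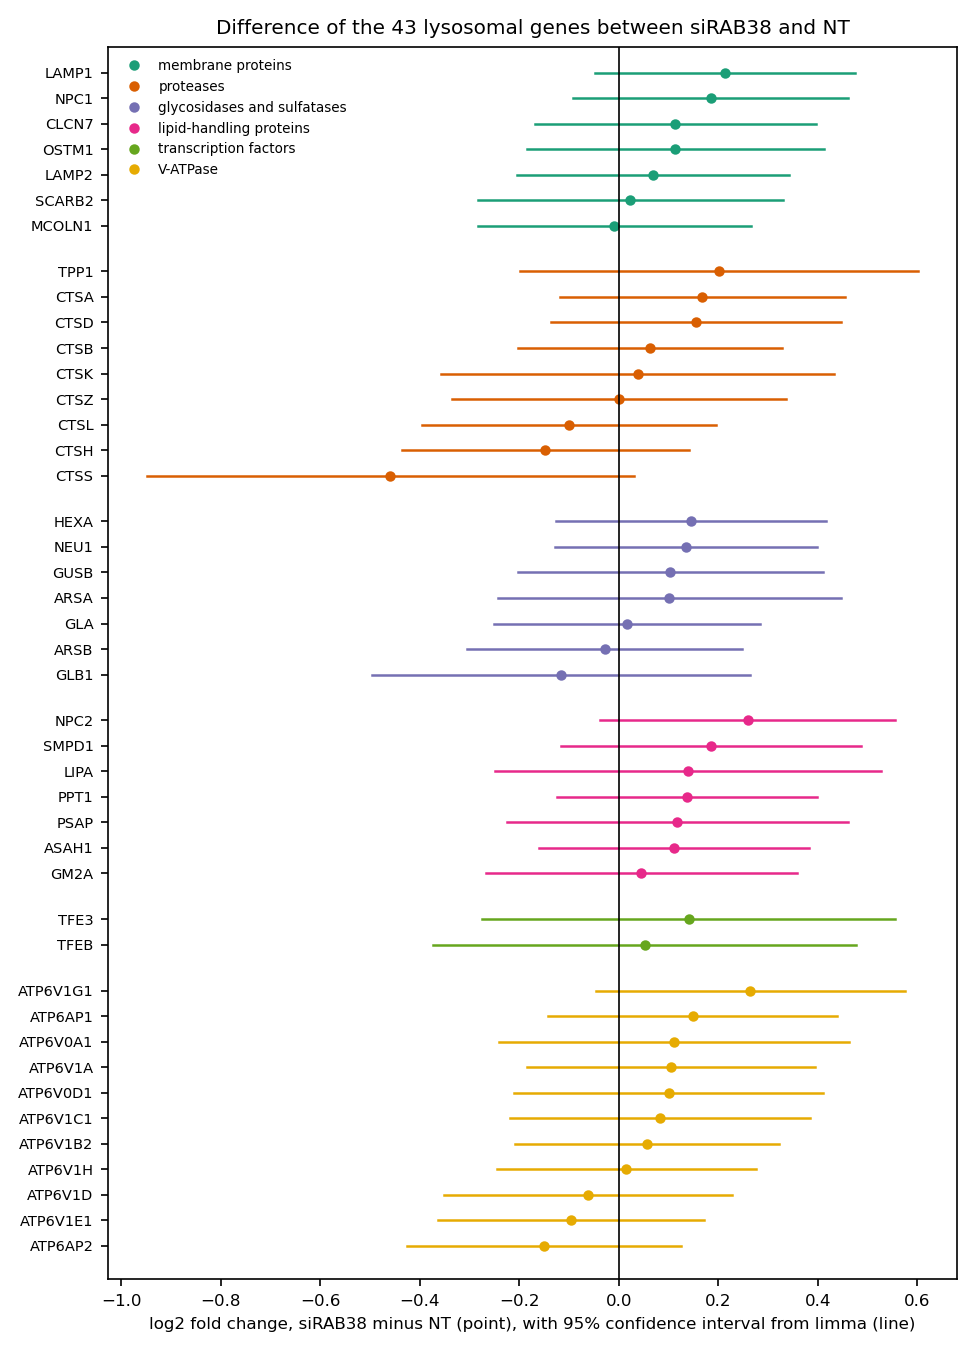
Log2 fold change (siRAB38 minus NT, points) and 95% confidence interval from limma (lines) of each of the 43 genes on the horizontal axis, with genes listed down the page by role. Intervals of all genes include 0, 34 points lie right of 0, and CTSS at -0.46 stands farthest from it.

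**Figure D2:**
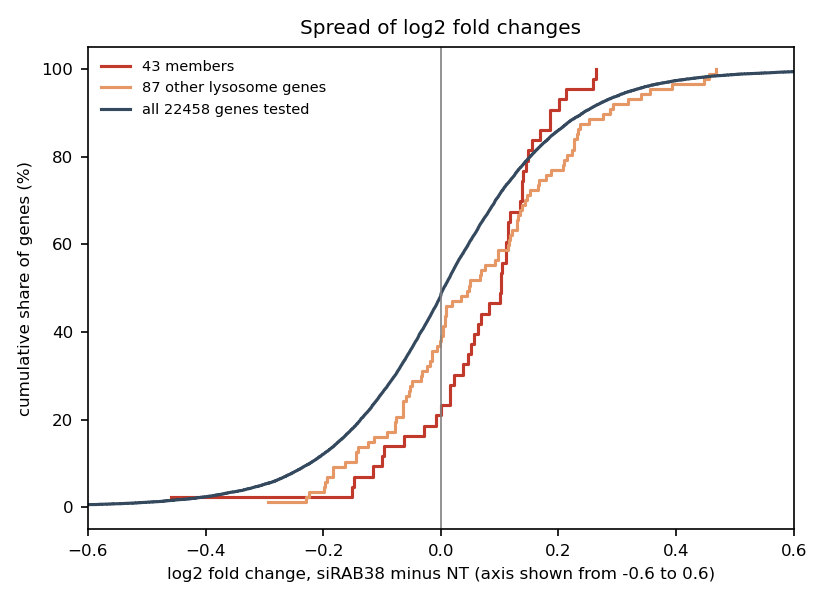
Cumulative share of genes (%, vertical axis) against log2 fold change (siRAB38 minus NT, horizontal axis) for the 43 genes, 87 other lysosome genes and all 22458 genes. The curve of the 43 genes crosses its midpoint at 0.10 and that of all genes at 0.01.

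TFEB and its relatives are known to bind an E-box, CACGTG, near the start of lysosomal genes. RefSeq promoter windows (GRCh38.p14), each covering 250 bases before to 50 after a gene's start, were given for 31 of the 43 genes, as 38 windows since some genes have several starts. CACGTG, which reads the same on both strands, was found in 9 of these windows (23.7%), each of a different gene, against 7.26% of all 35116 windows, 8.27% of those of tested genes and 9.14% of those of genes outside the dimmest 30%. The longer TCACGTGA, which contains it, was in 5 windows (13.2%), against 0.98% of all, 1.28% of those of tested genes and 1.54% of those of genes outside the dimmest 30%. In 107 windows of the other lysosome genes described further on, CACGTG was in 19.6% and TCACGTGA in 10.3%. The 9 genes with CACGTG were ARSB, NEU1, ATP6V1G1, CTSD, LAMP1, CLCN7, ATP6V0D1, MCOLN1 and CTSA. Of these, 7 had a log2 fold change above 0, with a median of 0.13 and a range of -0.03 to 0.26, and 6 stood apart upward and 0 downward. Of the 22 genes with windows but no CACGTG, 16 lay above 0, with a median of 0.08, and 5 stood apart upward and 4 downward. Of the 12 genes with no window, 11 lay above 0, with a median of 0.08, and 5 stood apart upward and 1 downward. Over all genes, 18.8% stood apart upward and 17.2% downward. A match of letters is not a binding site, and the difference between these groups of genes was not tested. Windows are printed 5′ to 3′ with CACGTG in capitals for LAMP1, ATP6V1G1 and CTSA, whose siRAB38 arrays lay above NT, and for MCOLN1, which holds 2 copies and had a log2 fold change of -0.01:
LAMP1, chr13:113296989-113297288, plus strand: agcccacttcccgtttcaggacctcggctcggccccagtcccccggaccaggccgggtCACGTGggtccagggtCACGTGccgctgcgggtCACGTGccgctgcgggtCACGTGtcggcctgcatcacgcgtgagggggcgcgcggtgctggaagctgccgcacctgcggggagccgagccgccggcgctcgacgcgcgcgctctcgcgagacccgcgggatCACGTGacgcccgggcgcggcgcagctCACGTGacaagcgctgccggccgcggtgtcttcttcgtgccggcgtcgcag
ATP6V1G1, chr9:114587519-114587818, plus strand: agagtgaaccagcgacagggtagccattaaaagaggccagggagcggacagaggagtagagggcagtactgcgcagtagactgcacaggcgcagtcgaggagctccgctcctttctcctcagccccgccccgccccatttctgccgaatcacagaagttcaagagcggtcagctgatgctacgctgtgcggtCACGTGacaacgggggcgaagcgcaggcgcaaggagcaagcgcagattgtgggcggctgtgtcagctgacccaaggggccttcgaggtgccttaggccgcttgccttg
CTSA, chr20:45891085-45891384, plus strand: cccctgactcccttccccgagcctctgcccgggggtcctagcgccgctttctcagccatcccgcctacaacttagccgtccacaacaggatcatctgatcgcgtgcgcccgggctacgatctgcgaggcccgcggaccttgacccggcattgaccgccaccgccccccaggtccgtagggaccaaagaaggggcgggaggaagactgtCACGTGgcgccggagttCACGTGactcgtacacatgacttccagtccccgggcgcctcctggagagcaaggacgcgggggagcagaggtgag
MCOLN1, chr19:7522374-7522673, plus strand: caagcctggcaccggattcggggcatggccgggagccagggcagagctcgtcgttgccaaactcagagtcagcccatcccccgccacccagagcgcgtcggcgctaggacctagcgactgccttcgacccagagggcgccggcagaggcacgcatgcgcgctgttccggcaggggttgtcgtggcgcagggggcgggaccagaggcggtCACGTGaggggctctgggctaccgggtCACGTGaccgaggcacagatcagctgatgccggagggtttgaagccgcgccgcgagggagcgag
LAMP1 held 6 copies, at 192, 176, 159, 142, 28 and 1 bases before the start. ATP6V1G1 held 1 copy, at 58 bases before it. The 2 copies of CTSA stood at 42 and 25 bases and those of MCOLN1 at 41 and 14 bases before the start.

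Membrane proteins lay mostly above 0. Of the 7 genes 6 did, the median being 0.11 on the log2 scale, and 3 stood apart upward (42.9%, against 18.8% of all genes). LAMP1, an abundant glycoprotein that lines the lysosomal membrane, had log2 levels of 8.49 and 8.50 in the siRAB38 arrays, against 8.30 and 8.25 in the NT arrays. The arrays of each group lay close together and the groups did not overlap, with a log2 fold change of 0.21 ± 0.10 (SE, 95% interval -0.05 to 0.48, limma adjusted p = 0.73). LAMP1 is also the gene with the most copies of CACGTG in the windows above. NPC1, which exports cholesterol from the lysosome, had levels of 7.20 and 7.08 in siRAB38, against 6.94 and 6.97 in NT, a log2 fold change of 0.18 ± 0.11 (SE). CLCN7, a chloride-proton exchanger, had 7.30 and 7.15 in siRAB38, against 7.10 and 7.12 in NT. Its siRAB38 array 2 lay just above NT. OSTM1, the partner subunit of CLCN7, had 7.05 and 7.23 in siRAB38, against 6.998 and 7.05 in NT, and its groups overlapped slightly. LAMP2, a relative of LAMP1 with a part in autophagy, SCARB2, a receptor that carries an enzyme to the lysosome, and the cation channel gene MCOLN1 had log2 fold changes of 0.07, 0.02 and -0.01, with overlapping arrays. The mean deviation of the 7 genes was 0.049 and 0.0523 in the siRAB38 arrays and -0.0571 and -0.0441 in the NT arrays.

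All 7 lipid-handling genes lay above 0. They had log2 fold changes of 0.05 to 0.26 with a median of 0.14. Of them 4 stood apart upward (57.1%, against 18.8% of all genes). NPC2, a soluble protein that hands cholesterol to NPC1, had levels of 8.83 and 8.67 in siRAB38, against 8.45 and 8.54 in NT. The groups did not overlap, and the log2 fold change was 0.26 ± 0.12 (SE, 95% interval -0.04 to 0.56, limma adjusted p = 0.73). SMPD1, the acid sphingomyelinase, had 8.72 and 8.52 in siRAB38, against 8.43 in both NT arrays, a log2 fold change of 0.19 ± 0.12 (SE) that was 0.088 without siRAB38 array 1. The lower siRAB38 array still lay above NT. PPT1, which removes palmitate from proteins, had 9.07 in both siRAB38 arrays, against 8.91 and 8.96 in NT. ASAH1, the acid ceramidase, had 7.03 and 7.11 in siRAB38, against 6.93 and 6.99 in NT. Both were higher in siRAB38 by small steps, with log2 fold changes of 0.14 and 0.11 (standard error 0.10 and 0.11). LIPA, the acid lipase, PSAP, the precursor of the saposins, and GM2A, an activator of ganglioside breakdown, had log2 fold changes of 0.14, 0.12 and 0.05 with overlapping arrays. The mean deviation of the 7 genes was 0.0627 and 0.0794 in siRAB38 and -0.0702 and -0.0719 in NT. The median stayed between 0.14 and 0.15 when each array was left out in turn, and 5 of the 7 lay above 0 without siRAB38 array 2.

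Proteases lay on both sides of 0. Of the 9 genes 6 lay above 0, the median being 0.038 on the log2 scale. Of these 9, 3 stood apart upward and 3 downward (33.3% each, against 18.8% and 17.2% of all genes). CTSA, a carboxypeptidase that also protects the enzymes encoded by GLB1 and NEU1, had levels of 10.63 and 10.51 in siRAB38, against 10.35 and 10.46 in NT, a log2 fold change of 0.17 ± 0.11 (SE). CTSD, the main aspartic protease of the lysosome, had 11.37 and 11.21 in siRAB38, against 11.14 and 11.13 in NT, a log2 fold change of 0.16 ± 0.11 (SE) that was 0.071 without siRAB38 array 1. Both genes carry CACGTG in their windows, and in both siRAB38 array 2 was the nearer one to NT. CTSB, a broadly expressed cysteine protease, also stood apart upward, with a log2 fold change of 0.06.

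CTSS had the difference of largest size among the 43 genes, and it lay below 0. This cysteine protease, known for trimming the invariant chain of MHC class II in immune cells, had levels of 4.61 and 4.84 in siRAB38, against 5.42 and 4.95 in NT. The NT arrays were 0.47 apart, the widest gap of any of these genes in NT, and the log2 fold change of -0.46 ± 0.19 (SE, 95% interval -0.95 to 0.03, limma adjusted p = 0.72) was -0.23 without NT array 1 and -0.69 without NT array 2. CTSS is known to be inducible by interferon. The mean deviation of 19 measured interferon-stimulated genes, a list added after the CTSS values were seen, was -0.855 and 0.395 in siRAB38 arrays 1 and 2, against 0.689 and -0.23 in NT arrays 1 and 2. Of these 19 genes 18 lay below 0 (median -0.33 on the log2 scale), and the arrays overlapped in all 19. Both CTSS and the mean of that list were highest on NT array 1 and lowest on siRAB38 array 1. Between siRAB38 array 2 and NT array 2 their order differed, with CTSS lower and the mean of the list higher in siRAB38. The part of those genes in the CTSS difference was not tested. Of the 8 macrophage or microglia markers, 2 stood apart downward (FCER1G and ITGAM) and 1 upward (C1QA). These were 25% and 12.5% of the markers, against 17.2% and 18.8% of all genes, and 5 of the 8 were among the dimmest 30%. FCER1G, an immune receptor chain, had 2.33 and 2.09 in siRAB38, against 2.71 and 2.65 in NT. The mean level of the 8 markers was 2.00 and 1.96 in siRAB38 and 2.07 and 2.00 in NT, with the leukocyte marker PTPRC at 1.35 or less on every array.

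CTSH and CTSL, further cysteine proteases, also stood apart downward. CTSH had 4.31 and 4.19 in siRAB38, against 4.35 and 4.45 in NT, a log2 fold change of -0.15 ± 0.11 (SE). CTSL had a log2 fold change of -0.10, and its siRAB38 array 1 lay just below NT. TPP1, a tripeptidyl peptidase, had a log2 fold change of 0.20, but its siRAB38 arrays were 9.73 and 9.37, so that array 2 fell between the NT values of 9.42 and 9.28. CTSK, which is best known for collagen breakdown in bone, and CTSZ, a carboxypeptidase, had log2 fold changes of 0.04 and just above 0. CTSZ was the dimmest of the 43 genes, between 1.69 and 1.92 on the arrays, where RMA compresses differences. The median of the proteases was -0.068 without NT array 2, where 5 of 9 lay below 0, 0.069 without NT array 1 and 0.00085 without siRAB38 array 2.

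**Figure D3:**
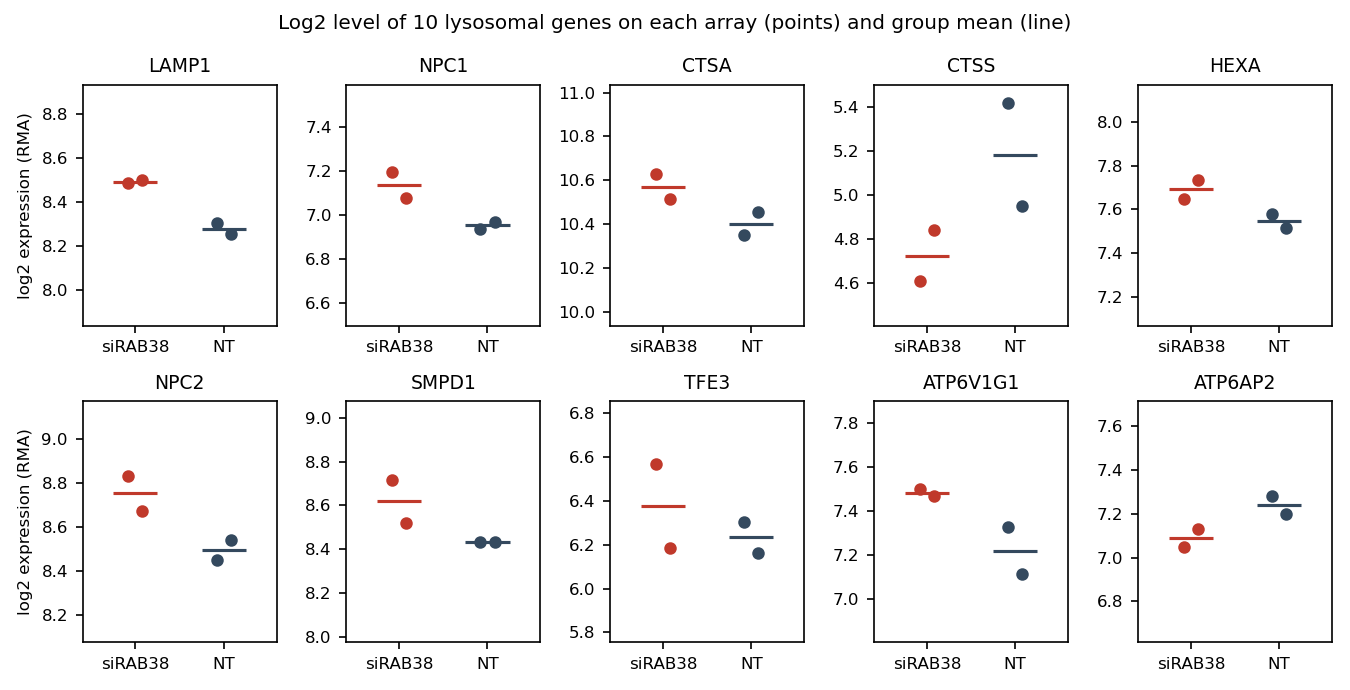
Log2 level (vertical axis, with the same span in each panel) of 10 genes on each array (points) in siRAB38 and NT, with the group mean as a line. The groups stand apart upward in LAMP1, NPC1, CTSA, HEXA, NPC2, SMPD1 and ATP6V1G1 and downward in CTSS and ATP6AP2, and overlap in TFE3.

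Glycosidases and sulfatases, which cut sugars and sulfate from glycans and glycolipids, lay above 0 in 5 of 7 genes, with a median of 0.10. Of the 7, 2 stood apart upward (28.6%, against 18.8% of all genes). HEXA, a subunit of the hexosaminidase that degrades GM2 ganglioside, had levels of 7.65 and 7.73 in siRAB38, against 7.58 and 7.51 in NT, a log2 fold change of 0.15 ± 0.11 (SE). NEU1, the lysosomal sialidase, had 8.09 and 8.08 in siRAB38, against 7.92 and 7.98 in NT, a log2 fold change of 0.13 ± 0.10 (SE). GUSB, the beta-glucuronidase, had 8.25 and 8.06 in siRAB38, against 8.01 and 8.10 in NT, with overlapping groups. GLB1, the beta-galactosidase, had 8.30 and 7.95 in siRAB38, against 8.22 and 8.26 in NT, so that the siRAB38 arrays lay on either side of NT. Its log2 fold change of -0.12 turned to 0.058 without siRAB38 array 2. The alpha-galactosidase gene GLA and the sulfatase genes ARSA and ARSB had log2 fold changes of 0.02, 0.10 and -0.03, all with overlapping arrays. The median of the 7 genes was 0.0077 without siRAB38 array 1, 0.017 without NT array 2 and 0.062 without NT array 1. Their mean deviation was 0.0775 and -0.0265 in the siRAB38 arrays and -0.0225 and -0.0285 in NT.

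The V-ATPase couples ATP hydrolysis in its V1 sector to proton flow through its V0 sector. Of the 11 genes 8 lay above 0, with a median of 0.08. Standing apart upward were 4 (ATP6V1G1, ATP6AP1, ATP6V1A and ATP6V1B2), and downward 2 (ATP6AP2 and ATP6V1E1). That is 36.4% and 18.2% of the 11, against 18.8% and 17.2% of all genes. ATP6V1G1, a stalk subunit of V1, had levels of 7.50 and 7.47 in siRAB38, against 7.33 and 7.11 in NT. Its log2 fold change of 0.26 ± 0.12 (SE, 95% interval -0.05 to 0.58, limma adjusted p = 0.73) was 0.37 without NT array 1 and 0.16 without NT array 2. The other V1 subunits among the 43 lay closer to 0. ATP6V1A, a catalytic subunit, had 7.18 and 7.17 in siRAB38, against 6.99 and 7.15 in NT, a log2 fold change of 0.10 ± 0.11 (SE) that was 0.023 without NT array 1. ATP6V1B2 had 0.06, the regulatory subunits ATP6V1C1 and ATP6V1H had 0.08 and 0.02, and ATP6V1D and ATP6V1E1 of the central and outer stalks had -0.06 and -0.10.

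In the V0 sector, ATP6V0A1 and ATP6V0D1 had log2 fold changes of 0.11 and 0.10, with overlapping arrays. The accessory proteins lay on opposite sides of 0. ATP6AP1, which helps to assemble the pump, had 9.13 and 9.23 in siRAB38, against 9.10 and 8.97 in NT, a log2 fold change of 0.15 ± 0.11 (SE) that was 0.083 without NT array 2. ATP6AP2, also known as the prorenin receptor, had 7.05 and 7.13 in siRAB38, against 7.28 and 7.20 in NT, a log2 fold change of -0.15 ± 0.11 (SE). Neither passed the adjusted threshold. The median of the 11 genes was 0.018 without siRAB38 array 1 and 0.021 without NT array 1.

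The mRNAs of the transcription factors themselves did not separate the groups. TFE3 had 6.57 and 6.18 in siRAB38, against 6.31 and 6.16 in NT, a log2 fold change of 0.14 ± 0.16 (SE). TFEB had 3.34 and 3.03 in siRAB38, against 2.98 and 3.27 in NT, a log2 fold change of 0.05 ± 0.17 (SE, 95% interval -0.37 to 0.48). Without siRAB38 array 1 both lay below 0, at -0.052 for TFE3 and -0.10 for TFEB. Activity of these factors is set largely by their move to the nucleus, which mRNA levels do not show.

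**Figure D4:**
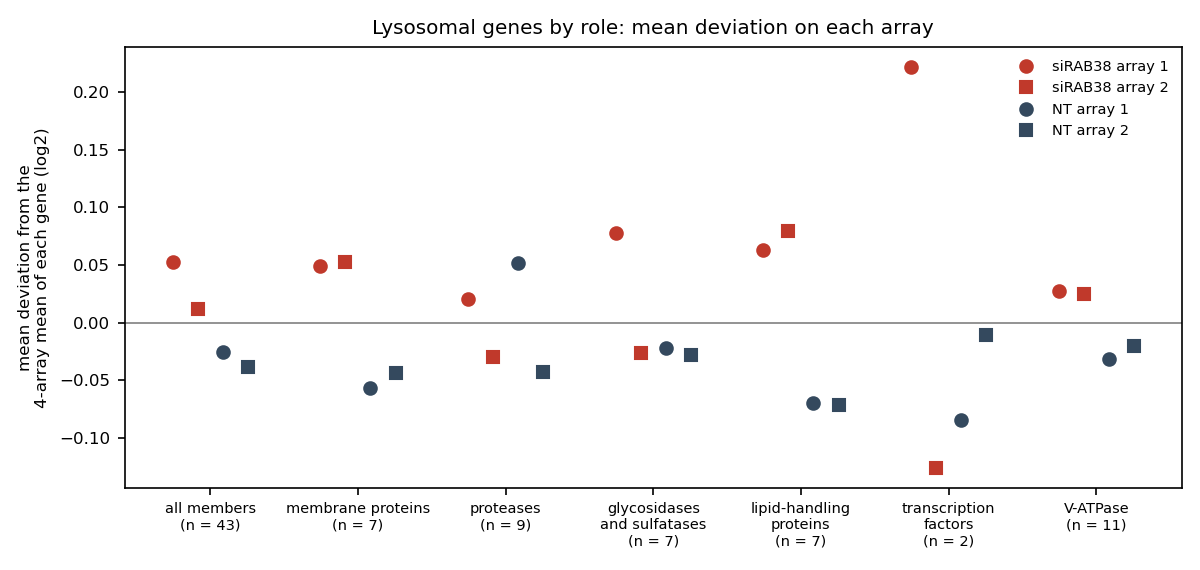
Mean deviation from each gene's mean over the 4 arrays (log2, vertical axis) on each array, for the 43 genes and for each role, with siRAB38 arrays to the left of NT arrays. Membrane proteins, lipid-handling proteins and V-ATPase genes keep both siRAB38 arrays above both NT arrays, whereas proteases, glycosidases and transcription factors do not.

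The wider lysosomal system was read from 98 further genes in 5 lists, of which 87 were measured. No gene of these lists passed the adjusted threshold (adjusted p of 0.72 or more in limma). At an unadjusted p under 0.05, 8 of the 87 lay above NT and 0 below, against 3.75% and 3.1% of all genes. The count of 8 was 5 with array medians set equal and with the replicate number as a block, against 3.06% and 2.97% of all genes. In the methods' t-test it was 6, against 3.46%, and SCPEP1 and ABCA2 among these were not of the 8. The count of 0 below became 1, CTSC, with the variance prior that follows the level, against 3.48%, and in the methods' t-test, against 3.1%. Without 1 array, log2 fold changes ran from 0.39 to 0.53 for HGSNAT and from 0.23 to 0.56 for RRAGD. Of the 87, 29 (33.3%) stood apart upward and 8 (9.2%) downward, against 18.8% and 17.2% of all genes. The median log2 fold change was 0.048, and it was 0.022 without siRAB38 array 1 and 0.081 without siRAB38 array 2.

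Among the further membrane proteins were the genes with the highest log2 fold changes of the 87, ATP13A2 and HGSNAT. Of 20 genes 8 stood apart upward (40%) and 2 downward (10%), against 18.8% and 17.2% of all genes. HGSNAT, which acetylates heparan sulfate during its breakdown, had levels of 7.82 and 7.68 in siRAB38, against 7.24 and 7.34 in NT, a log2 fold change of 0.46 ± 0.11 (SE, limma adjusted p = 0.72). ATP13A2, a polyamine exporter of the lysosome, had 6.51 and 6.28 in siRAB38, against 5.87 and 5.98 in NT, a log2 fold change of 0.47 ± 0.13 (SE). The third gene under an unadjusted p of 0.05 was TPCN1, a cation channel, at 0.32. Among 24 measured further hydrolases 10 stood apart upward (41.7%) and 3 downward (12.5%), against the same shares of all genes. IDUA, the alpha-iduronidase, had 5.70 and 5.61 in siRAB38, against 5.26 and 5.34 in NT, a log2 fold change of 0.36 ± 0.11 (SE). NAGLU, an enzyme of heparan sulfate breakdown, had 6.89 and 6.85 in siRAB38, against 6.63 and 6.54 in NT, a log2 fold change of 0.29 ± 0.11 (SE).

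The 13 further V-ATPase subunits had a median of 0.05. Of them 2 stood apart upward (15.4%) and 1 downward (7.69%), against 18.8% and 17.2% of all genes. ATP6V1F of the V1 sector had 8.50 and 8.24 in siRAB38, against 8.12 and 8.18 in NT, and the neuronal stalk subunit ATP6V1G2 had 2.88 and 2.64 in siRAB38, against 2.88 and 3.23 in NT. Among 9 genes of mannose 6-phosphate sorting, which tags and delivers hydrolases, 3 stood apart upward (33.3%) and 0 downward. GNPTAB, which encodes the tagging phosphotransferase, had 6.66 and 6.77 in siRAB38, against 6.37 and 6.47 in NT, a log2 fold change of 0.29 ± 0.11 (SE). IGF2R, a receptor for the tag, had 6.9985 and 7.15 in siRAB38, against 6.86 and 6.88 in NT, a log2 fold change of 0.21 ± 0.11 (SE).

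The 21 genes of nutrient sensing at the lysosome and of TFEB control had a median of 0.05. Of them 6 stood apart upward (28.6%) and 2 downward (9.52%), against 18.8% and 17.2% of all genes. FLCN, which restrains TFEB and TFE3 through the Rag GTPases, had 5.16 and 5.22 in siRAB38, against 4.87 and 4.62 in NT, a log2 fold change of 0.45 ± 0.13 (SE). RRAGD, a Rag GTPase that is itself a known target of these factors, had 5.69 and 5.60 in siRAB38, against 5.09 and 5.42 in NT, a log2 fold change of 0.39 ± 0.15 (SE). In limma both had an unadjusted p under 0.05 and an adjusted p of 0.72. RRAGD did not keep an unadjusted p under 0.05 with array medians set equal, with the replicate number as a block, in the methods' t-test or when an array other than NT array 2 was left out, and its log2 fold change was 0.23 without NT array 1. FLCN did not keep it in the methods' t-test or when an array other than NT array 1 was left out. MITF, a relative of TFEB that drives pigment genes, stood apart downward, with 2.86 and 3.12 in siRAB38, against 3.16 and 3.28 in NT.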

How the data were processed

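Total RNA of LN229 cells was labelled by the authors with the WT Plus kit and hybridized to Affymetrix arrays. The deposited table holds log2 values made by the authors with RMA (background correction, quantile normalization and summarisation of probes), for which affy 1.60.0 and R 3.5.1 are listed in the submitters' processing notes. Quantile normalization hides a change shared by all genes. Rows carry Entrez gene identifiers. The probe definition and genome build are not given in the sources used here. Of 23786 rows, 22458 had 1 symbol in the platform annotation, 0 had several and 1328 had none.

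Groups followed the submitters' titles. Differences (siRAB38 minus NT) were fitted in R 4.3.3 with lmFit and eBayes of limma 3.58.1 (prior degrees of freedom of 3.15, 2 residual degrees of freedom), with Benjamini-Hochberg adjustment over 22458 genes and a threshold of 0.05. The fitting code was tested on simulated data with planted differences before use. The smallest two-sided p that exact permutation of 2 and 2 arrays can reach is 0.333. The number of arrays limits the precision. The genes and lists were chosen with earlier results of these data known. Full values are given for up to 4 genes per role with the smallest unadjusted p, both transcription factors, any gene of the 43 with a log2 fold change of 0.5 or more in size (there was none) and 2 genes per further list. TPCN1, MITF, FCER1G, SCPEP1, ABCA2 and the genes of the closing observations were named after their values were seen. Outside this rule, values are also given for TPP1, PTPRC and the markers of a glial or neural lineage, and ITGAM and C1QA are named. Names and promoter windows came from RefSeq (GRCh38.p14). All 43 genes were matched to RefSeq gene records by identifier, whereas promoter windows were picked by symbol and were given for 31 of the genes. The counts of further lysosome genes under the alternatives were added after seeing the data. Alternatives covered scaling, dim genes, rows tested, variance prior, array weights, the replicate number, the methods' t-test and leaving out each array.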

Additional observations from a re-analysis of the deposited data

How the results depend on the processing

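In all alternatives, among them quantile normalization, equal array medians, array weights, the replicate block, the methods' t-test and leaving out each array, 0 of the 43 genes and 0 of all genes passed the adjusted threshold, and RAB38 stayed below 0 (log2 fold change from -2.21 to -1.31 without 1 array). The number of lysosomal genes above 0 was 31 with array medians set equal, where the median of all genes was -0.01, 33 of 42 without the dimmest 30% of genes, and 30 to 32 of 43 without 1 array. Their median was 0.083 with equal array medians and ran from 0.052 (without siRAB38 array 1) to 0.097 without 1 array, with 0.078 without NT array 1. Of 442 alternatives run on 34 single genes, 438 kept the sign, but many of these could not turn it. Changing the dim genes, rows tested, variance prior, array weights, replicate block or test left each log2 fold change as it was. Only scaling and leaving out an array could change it. The 4 alternatives that turned the sign all left out 1 array. They concern TFEB (from -0.10 to 0.21), TFE3 (from -0.052 to 0.33) and GLB1 (from -0.29 to 0.058), and the cause was not tested. The same replicate number in both groups is not stated to mark a shared source, and deviations of same-numbered arrays correlated at -0.05 across genes. With the replicate block the adjusted p of RAB38 from limma was 0.798. The block cannot change a log2 fold change in this balanced design, so the 34 genes above 0 and the median of 0.10 stayed by construction. At an unadjusted p under 0.05 the 43 genes gave 3 higher with the trend, against 3.76% of all genes, 2 higher with the methods' t-test, against 3.46%, and 1 lower, CTSS, with equal array medians and without NT array 2, against 3.66% and 2.1%. The 8 further lysosome genes at such a p became 5 with equal array medians, where NAGLU, GNPTAB and RRAGD were lost, and the same 3 were lost with the replicate block. Without siRAB38 array 1 the log2 fold changes of CLCN7, CTSA, GUSB and ATP6V1F were 0.041, 0.11, 0.0077 and 0.093, and without siRAB38 array 2 those of OSTM1, CTSH, ASAH1 and IGF2R were 0.024, -0.084, 0.069 and 0.13. Leaving out an array leaves 1 array in a group, which is assumed to vary like the other group.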

Other observations

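Several of the genes with the largest upward differences encode steps of heparan sulfate breakdown, a grouping made after their values were seen and not tested. HGSNAT, IDUA, NAGLU and SGSH had log2 fold changes of 0.46, 0.36, 0.29 and 0.23, all standing apart upward, and GUSB had 0.10 with overlapping arrays. IDS, the iduronate sulfatase of the same chain, had 7.16 and 7.30 in siRAB38, against 7.51 and 7.36 in NT, a log2 fold change of -0.20 ± 0.12 (SE), and stood apart downward.

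Cysteine proteases outside the 43 genes also lay below 0 in part. CTSC, a dipeptidyl peptidase, had 7.76 and 7.67 in siRAB38, against 7.95 and 7.93 in NT, a log2 fold change of -0.22 ± 0.11 (SE). CTSO had -0.16, and both genes stood apart downward. CTSV, CTSF and LGMN had log2 fold changes of 0.02, 0.01 and -0.12 with overlapping arrays. These values were picked after the protease results had been seen.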
